A study of Mus musculus with 30 samples.

Results

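The Reg lectins are small secreted proteins built around a C-type lectin fold, and 4 of the 14475 genes in the deposited expression table were taken as the family here, by gene symbol: Reg3b, Reg3g, Reg3a and Reg4. The table also lists Reg1, and Reg2 and Reg3d are not analysed here. In the mouse gut, Reg3g kills Gram-positive bacteria by binding their peptidoglycan, and Reg3b acts mainly against Gram-negative bacteria. Epithelial cells make both when microbes signal through MyD88 or when interleukin 22 (IL-22) reaches its receptor and activates Stat3, and the proteins help to keep bacteria away from the epithelial surface. Reg3a is a close relative whose role in the mouse is less well defined. Reg4 marks deep crypt secretory cells of the mouse colon, which sit between the stem cells at the crypt base and supply them with growth signals, and it is also made by some enteroendocrine cells.

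RNA came from ascending or descending colon tissue of female mice. Mutants, labelled TM-DKOAsc, carried C1galt1 f/f and C3GnT-/- with VillinCre-ERT2, a tamoxifen-dependent Cre that the Villin promoter limits to gut epithelial cells. C1galt1 and C3GnT (listed as B3gnt6) build the core 1 and core 3 O-glycans of mucins, and Cre deletes only C1galt1, only in epithelium, while C3GnT is missing from every cell. Controls were littermates described as WT, and the protocol gives the same 0.5 mg of tamoxifen a day (about 20 mg/kg) to both genotypes for 5 days, with analysis 5 or 10 days after the last dose and the interval of each library not given. Each region had 8 mutant and 7 control libraries from 3 cages with the same microbiota. The strain label was 'C57BL/6 Background' in cage A, at an age of 3.4 months. It was 'Mixed BL/6-129SvJ' in cage B, at 2.6 months, and in cage C, at 3.2 months, so that cage, strain label and age cannot be told apart. The labels do not say which libraries came from separate animals, so p-values measure the spread between these libraries. Values are FPKM, that is, fragments per kilobase of gene length and per M mapped reads, where M stands for mega.

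The estimated depth was 1.46 to 9.00 M reads per library, and 1.46 to 1.60 M in the 3 ascending mutants of cage A. B3gnt6 lay between 0 and 0.53 FPKM in ascending mutants. Among ascending controls it was at 9.52 FPKM in B1 and 19.52 in B2, and between 0.11 and 0.60 in the others. In the descending colon it reached at most 0.43 FPKM in controls, 3 of them at 0, and 0.06 in mutants. Its level therefore does not identify the genotype of each library. C1galt1 averaged 26.7 ± 6.64 FPKM in ascending mutants and 35.3 ± 9.44 FPKM in ascending controls (SD, n = 8 and 7). In the ascending colon neither gene passed the test (limma adjusted p = 0.42 for B3gnt6 and 0.348 for C1galt1), and the groups overlapped for both genes. The 8 epithelial markers summed to 4550 to 5742 FPKM in ascending mutants and 3379 to 5824 FPKM in ascending controls, and to 2777 to 5520 FPKM in descending mutants and 2834 to 5239 FPKM in descending controls. Ascending control B1 and descending control A2 stood apart: B1 had a summed level of the 8 smooth muscle markers of 415.66 FPKM, against a median of 59.2 in its group, and A2 had the lowest depth of its group, 3.18 M reads. A2 also differed in composition. It had the mucin gene Muc2 at 2135.7 FPKM and the cytokine gene Il18 at 26.58, against group medians of 548.18 and 115.08. Its macrophage and neutrophil marker sum was 179.08 FPKM, against a median of 35.38. The part of these traits in its Reg4 level was not tested. Libraries here are tissue, so that fewer cells of a type and less RNA per cell cannot be told apart.

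In the mouse genome (GRCm38), the Reg3 genes lie in a cluster on chromosome 6. Reg3b (ENSMUSG00000071356.7) spans chr6:78370657-78373466 on the plus strand, Reg3a (ENSMUSG00000079516.2) spans chr6:78380709-78383827 on the plus strand, and Reg3g (ENSMUSG00000030017.2) spans chr6:78466269-78468872 on the minus strand. The cluster covers 98.2 kb and holds 6 protein-coding genes, of which the table lists 4. Reg4 (ENSMUSG00000027876.4) lies apart, at chr3:98222156-98236748 on the plus strand. Because the genes are related, shared reads were checked: of all stretches of 50 nt in the annotated transcripts of the 4 genes, the length of a read, 0 occur in a transcript of another gene.

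The promoters of the 3 Reg3 genes are shown because these genes shared a regional pattern, and 2 of them share sequence at the start site. Each runs from 250 bases before to 50 bases after the start site in RefSeq (GRCm38.p6), 5′ to 3′ on the strand of the gene. For Reg3b, the span given above, from GENCODE M21, begins at 78370657, so most of its window lies inside that span. Positions relative to a start site refer to the RefSeq start, and which start site the colon uses was not tested. Capitals mark the run of 29 bases that Reg3b and Reg3g have in common, which begins 20 bases before the start site in both and occurs in only these 2 of 32851 promoters.
Reg3b, chr6:78370635-78370934, plus strand: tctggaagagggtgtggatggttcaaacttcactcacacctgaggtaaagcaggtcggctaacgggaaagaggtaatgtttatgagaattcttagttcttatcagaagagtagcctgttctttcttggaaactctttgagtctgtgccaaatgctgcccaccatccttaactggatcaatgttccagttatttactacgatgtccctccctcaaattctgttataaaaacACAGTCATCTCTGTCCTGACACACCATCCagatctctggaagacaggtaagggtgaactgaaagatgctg
Reg3g, chr6:78468825-78469124, minus strand: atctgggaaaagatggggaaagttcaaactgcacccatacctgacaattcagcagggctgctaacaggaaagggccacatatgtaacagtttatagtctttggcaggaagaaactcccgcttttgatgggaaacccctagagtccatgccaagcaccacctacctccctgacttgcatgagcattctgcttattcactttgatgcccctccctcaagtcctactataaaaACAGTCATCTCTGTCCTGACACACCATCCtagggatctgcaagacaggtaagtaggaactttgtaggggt
Reg3a, chr6:78380459-78380758, plus strand: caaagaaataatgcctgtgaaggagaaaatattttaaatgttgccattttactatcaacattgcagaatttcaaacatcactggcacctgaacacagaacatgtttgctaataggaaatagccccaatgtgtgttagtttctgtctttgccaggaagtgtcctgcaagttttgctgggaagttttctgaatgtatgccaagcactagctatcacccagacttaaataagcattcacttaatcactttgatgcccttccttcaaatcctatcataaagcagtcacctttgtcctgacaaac

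The promoter of Reg3a holds a 10-base piece of that run, TGTCCTGACA, which 15 of the promoters hold. It begins 37 bases after the start site in Reg3a, but 9 bases before it in Reg3b and Reg3g. The letters TATAAA, searched on both strands, occur just ahead of the capitals in Reg3b and Reg3g, 29 and 27 bases before the start site. Reg3g has a further match on the reverse strand, 161 bases before the start site. These letters occur in 13.6% of all promoters. The palindromic STAT motif TTCNNNGAA occurs once in the Reg3b window, 129 bases before the start site, and is not in the windows of the other 3 genes. It occurs in 8.30% of all promoters. The motif TTTATG, bound by the intestinal Cdx factors, occurs once each in the windows of Reg3b and Reg3a, with the match in Reg3a on the reverse strand, and in 11.8% of all promoters. The GATA motif AGATAA occurs in the window of Reg4 and in 11.2% of all promoters. These matches describe the letters in the windows.

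Reg3b was among the most abundant transcripts of the ascending colon and was close to absent from the descending colon. Among ascending mutants it was listed at 229.37, 303.03 and 893.37 FPKM in cage A, 46.03 and 1070.49 in cage B, and 61.52, 411.39 and 705.85 in cage C. Among ascending controls it was listed at 1015.28 and 846.42 FPKM in cage A, 3.99, 713.96 and 872.78 in cage B, and 15.21 and 355.75 in cage C. Control B1 and control C1 were far below the other controls, and mutants B1 and C1 were the lowest mutants. In the descending colon Reg3b was listed at 0 in 13 of 15 libraries, and the other 2 were mutants A3 and C1, at 0.52 and 0.54 FPKM. The lowest ascending library was still above every descending one. By its group median, Reg3b ranked 58th of all genes in ascending mutants and 23rd in ascending controls.

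Reg3g had the same regional pattern at a lower level. Its ascending mutants were at 29.76, 51.29 and 106.4 FPKM in cage A, 25.42 and 238.15 in cage B, and 18.83, 94.05 and 100.72 in cage C. Its ascending controls were at 39.45 and 69.49 FPKM in cage A, 3.75, 160.95 and 147.07 in cage B, and 4.81 and 47.61 in cage C. The lowest mutants and controls were again those of number 1 in cages B and C. No descending library exceeded 0.51 FPKM, and 5 of 15 were at 0.

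Reg3a was low everywhere. It lay between 0.99 and 2.77 FPKM in ascending mutants, with a median of 2.04, and between 0 and 5.28 FPKM in ascending controls, with a median of 2.89. Control B1 was the library at 0, and both controls of cage A, at 5.28 and 4.06, were the highest. It was listed at 0 in all 15 descending libraries. Reg1, a gene of the same cluster better known from the pancreas, reached at most 1.32 FPKM in ascending mutants and 2.38 FPKM in ascending controls, and was above 0 in 1 descending library.

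Reg4 ran the other way along the colon. In the ascending colon, mutants were at 17.02, 17.87 and 13.1 FPKM in cage A, 15.79 and 6.46 in cage B, and 93.04, 22.07 and 3.38 in cage C, and controls were at 15.47 and 20.02 in cage A, 1.88, 139.48 and 3.7 in cage B, and 1.15 and 1.25 in cage C. In the descending colon, mutants were at 355.04, 149.43 and 583.99 FPKM in cage A, 477.6 and 315.16 in cage B, and 74.82, 277.48 and 298.11 in cage C. Descending controls were at 245.07 and 53.62 FPKM in cage A, 314.63, 176.06 and 246.42 in cage B, and 142.09 and 417.32 in cage C. Both high ascending libraries, mutant C1 and control B2, reached into the descending range, so that the regions overlapped.

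**Figure D1:**
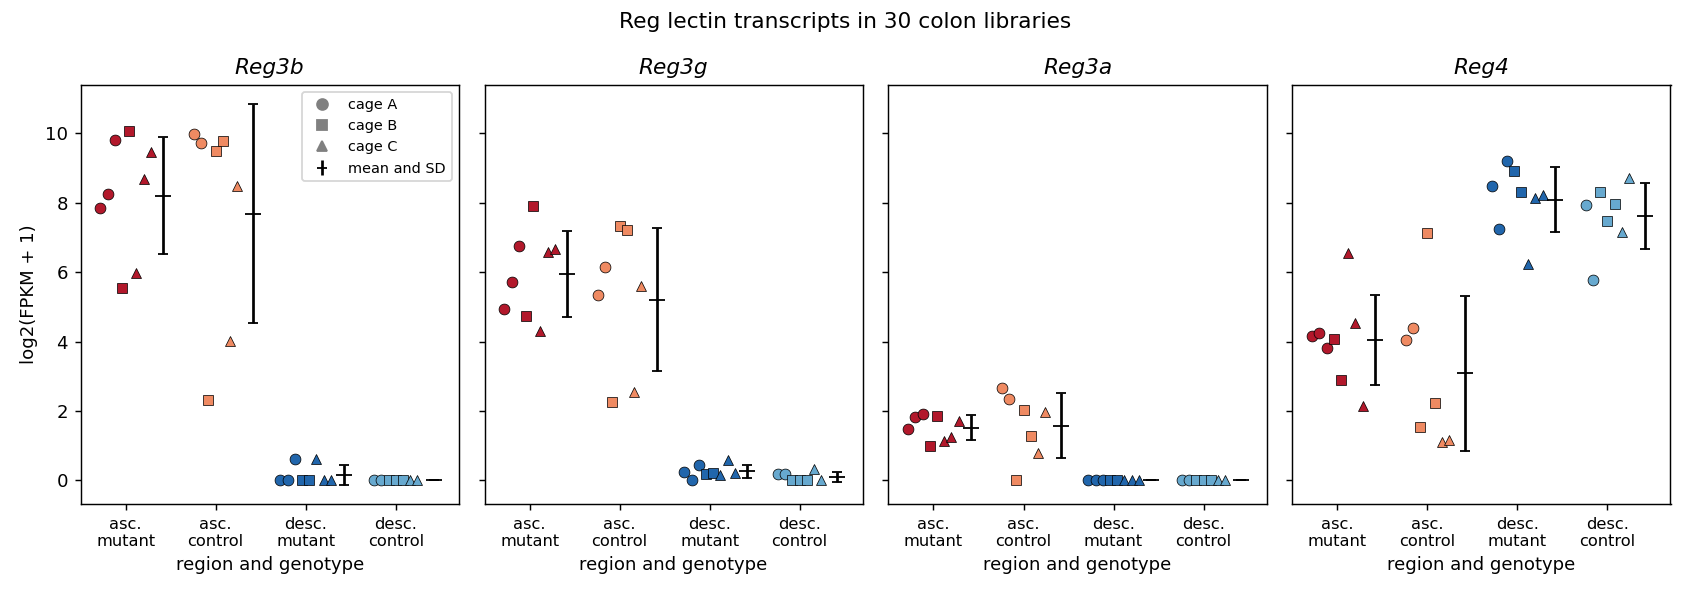
Level of each Reg transcript in log2(FPKM + 1) on the vertical axis, by region and genotype, with 1 point per library, the marker showing the cage, and bars giving the mean and SD of each group. Reg3b, Reg3g and Reg3a sit near 0 in all descending libraries, and Reg4 is higher there, with 2 ascending libraries inside its descending range.

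These values give an order of levels within the family for each region, as far as the gene lengths used for the deposited FPKM hold. In the ascending colon Reg3b was above Reg3g in 15 of 15 libraries and Reg3g was above Reg4 in 14 of 15, the exception being mutant C1. Reg4 was above Reg3a in 14 of 15 libraries, although the ranges of these neighbours overlapped, as did those of Reg3g and Reg4 and of Reg3b and Reg3g. In the descending colon Reg4 was above each Reg3 gene in 15 of 15 libraries.

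The mean regional difference passed the test for each of the 4 genes in both genotypes. Single libraries of the 2 regions still overlapped for Reg4, and for Reg3a through ascending control B1, at 0. In mutants, the ascending minus descending difference on the log2(FPKM + 1) scale was 8.05 ± 0.55 for Reg3b (SE, limma adjusted p = 5.76e-09) and 5.69 ± 0.41 for Reg3g (adjusted p = 1.00e-08). It was 1.52 ± 0.13 for Reg3a (adjusted p = 1.05e-07) and -4.04 ± 0.52 for Reg4 (adjusted p = 1.08e-05). In mutants 14.3% of genes tested were called higher and 29.7% lower in the ascending colon, and Reg3b had the largest positive difference of the 12203. The controls, which share no library with the mutants, gave 7.68 ± 1.05 for Reg3b (adjusted p = 8.05e-05) and 5.10 ± 0.71 for Reg3g (adjusted p = 9.22e-05). They gave 1.58 ± 0.30 for Reg3a (adjusted p = 0.00115) and -4.53 ± 0.81 for Reg4 (adjusted p = 7.12e-04). In controls 12.8% of genes were called higher and 25.1% lower, Reg3b again had the largest positive difference, of 12515, and Reg4 was 15th from the lowest. Without ascending control B1 and descending control A2 the values in controls were 8.5 for Reg3b, 5.7 for Reg3g, 1.76 for Reg3a and -4.59 for Reg4 (adjusted p of 1.5e-06 to 5.22e-04). The added 1 FPKM shrinks the difference of low genes such as Reg3a, and the 3 Reg3 genes passed the filter on low values only through the ascending libraries, so that their place among called genes is described here and not read as a share.

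Markers of other cells differed between the regions as well. Over all genes tested, 14.3% were higher and 29.7% lower in the ascending colon in mutants, and 12.8% and 25.1% in controls. Of 5 tested T cell and innate lymphoid markers, 4 were higher and 0 lower in the ascending colon in each genotype, and Gzma, a protease of cytotoxic lymphocytes, was higher by 2.77 ± 0.26 in mutants and 3.38 ± 0.32 in controls (SE, limma adjusted p = 2.80e-07 and 4.55e-06). The sum of the 7 in the table ran from 25.26 to 42.25 FPKM in ascending and 17.27 to 67.46 FPKM in descending mutants, and from 28.62 to 61.82 FPKM in ascending and 20.29 to 35.57 FPKM in descending controls. Of the 8 smooth muscle markers, 8 were lower in the ascending colon in mutants and 1 in controls, with sums of 5.36 to 49.86 FPKM in ascending and 34.16 to 274.75 FPKM in descending mutants, and of 11.61 to 415.66 FPKM in ascending and 26.99 to 430.27 FPKM in descending controls. The part of these cells in the regional difference of the Reg genes was not tested.

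The regional difference kept its sign in each cage and genotype. For Reg3b it ran from 7.81 to 8.43 over the 3 cages in mutants and from 6.25 to 9.86 in controls, both on the log2 scale. For Reg3g it ran from 5.52 to 6.11 in mutants and from 3.90 to 5.60 in controls. The difference of Reg4 ran from -5.12 to -3.13 in mutants and from -6.80 to -2.64 in controls, and its value nearest to 0 was in cage A controls, where descending control A2 had 53.62 FPKM.

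Among ascending libraries of 1 genotype, Reg3b, Reg4 and Reg3g were among the most variable genes measured. In ascending mutants the SD of log2(FPKM + 1) was 1.69 for Reg3b, 19th of the 10966 genes that averaged 1 FPKM or more, 1.29 for Reg4 and 1.23 for Reg3g, against a median of 0.26. In ascending controls it was 3.16 for Reg3b, the largest of 11299 genes, 2.23 for Reg4, which ranked 5th, and 2.06 for Reg3g, which ranked 16th, against a median of 0.26. Reg3a had an SD of 0.36 in mutants and 0.94 in controls. The lowest values behind the spread of Reg3b in controls were those of control C1 and of control B1, the library with high smooth muscle markers, whose part in the result was not tested. Without control B1, left out after the values were seen, the SD in controls was 2.30 for Reg3b and 2.32 for Reg4, the 2nd and 1st of 11299 genes, and 1.75 for Reg3g, against a median of 0.22. In the descending colon the SD of Reg4 was 0.94 in mutants and 0.96 in controls, or 0.56 in controls without A2, also left out after the values were seen.

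**Figure D2:**
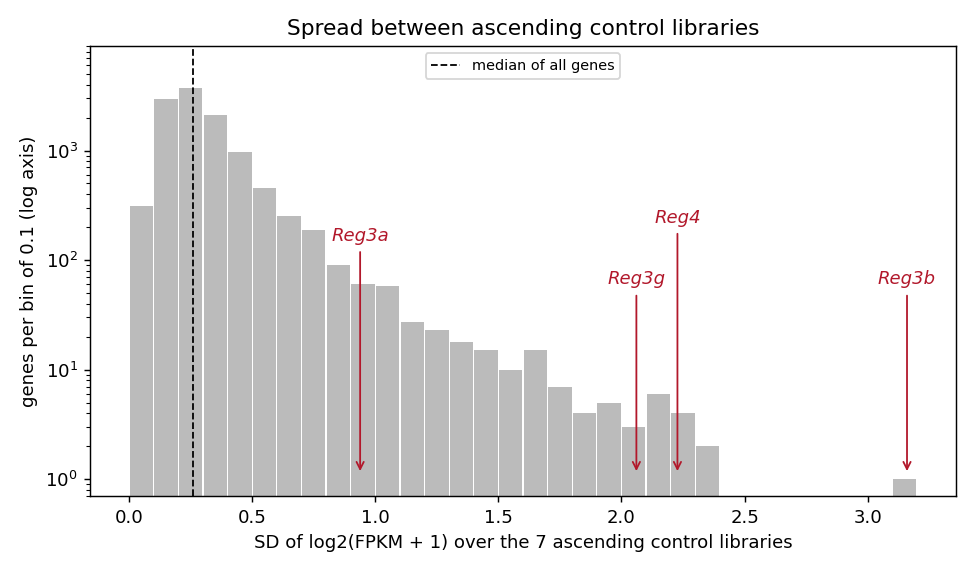
Number of genes, on a log axis, by the SD of log2(FPKM + 1) over the 7 ascending control libraries, in bins of 0.1, with arrows at the 4 Reg genes and a dashed line at the median of 0.26. Reg3b, at 3.16, stands alone at the right end, and Reg4 and Reg3g lie above 2.

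Reg3b and Reg3g, which lie at the 2 ends of the chromosome 6 cluster, were high and low in the same ascending libraries. Over the 15 ascending libraries Pearson's r was 0.918 and Spearman's rho 0.821 (permutation p = 1e-05, the smallest that the permutations can give, and 3.40e-04; adjusted over 6 pairs 6.00e-05 and 0.00204). Without the 2 libraries farthest from the median of Reg3b, r was 0.784, and within cage and genotype it was 0.987. Reg3a followed Reg3b with r = 0.868 and rho = 0.764 (adjusted permutation p = 6.00e-05 and 0.00432). With Reg3g, Reg3a had r = 0.662 and rho = 0.557, and rho did not pass after adjustment (adjusted permutation p = 0.0153 and 0.0663). The relations of Reg4 with the 3 Reg3 genes, r = 0.265 to 0.317, did not pass (adjusted permutation p = 0.338 to 0.342), and without the 2 farthest libraries r was -0.304 with Reg3b and -0.211 with Reg3g. The ratio of the 2 genes varied between libraries. Reg3b divided by Reg3g ran from 5.91 to 25.7 in cage A, from 1.06 to 5.93 in cage B and from 3.16 to 7.47 in cage C, with medians of 8.40, 4.44 and 4.37.

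**Figure D3:**
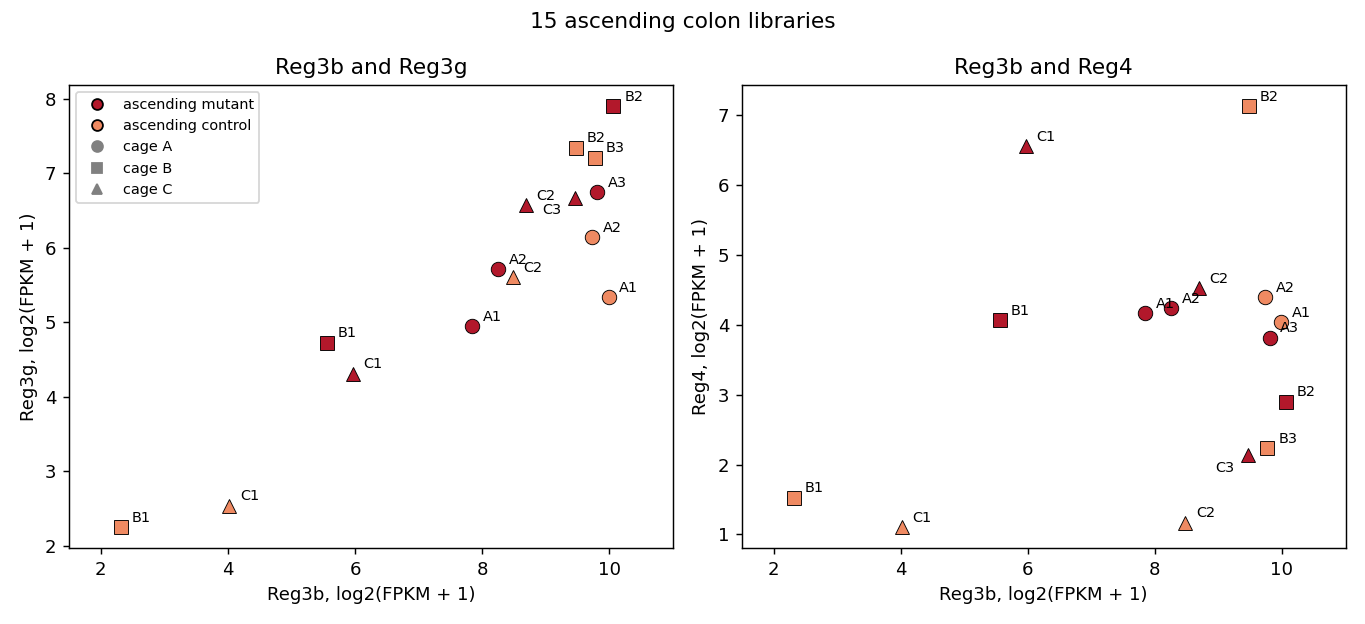
Levels in log2(FPKM + 1) of Reg3b on the horizontal axis against Reg3g (left) and Reg4 (right) in the 15 ascending libraries, with the colour giving genotype, the marker the cage and the label the cage and number. Reg3b and Reg3g lie along a line, with r = 0.918, and Reg3b and Reg4 do not, with r = 0.265.

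The libraries also differed in other genes in step with Reg3b, and not only in epithelial defence genes. Relations of Reg3b were computed, after the values had been seen, with the members of the IL-22 and MyD88 list and of the defence list that averaged at least 1 FPKM, with summed markers of 7 cell types and with estimated depth, 37 in all. Of these, 3 passed for both r and rho. Among all genes, Paics (0.914), Usp22 (0.904) and Phb (0.900), from outside these lists, had a larger rho with Reg3b than any of the 37. The relations below are therefore not particular to the lists. Dmbt1, a secreted scavenger receptor that binds bacteria and mucins, had r = 0.806 and rho = 0.793 (permutation p adjusted over the 37 = 0.00937 and 0.0215), and r was 0.774 without the 2 farthest libraries and 0.811 within cage and genotype. Pigr, which carries IgA across the epithelium, had r = 0.726 and rho = 0.711 (adjusted permutation p = 0.0181 and 0.0387), with r = 0.802 without the 2 farthest libraries and 0.709 within cage and genotype. The sum of the 15 goblet and deep crypt secretory cell markers had r = 0.772 and rho = 0.718 (adjusted permutation p = 0.00937 and 0.0387), with r = 0.596 without the 2 farthest libraries and 0.856 within cage and genotype. That sum ran from 3972 to 12057 FPKM in ascending mutants and from 3196 to 12564 FPKM in ascending controls, with control B1 lowest, and its part in the level of Reg3b was not tested. A large part of it was Muc2, at 2516 to 7150 FPKM in ascending mutants and 1923 to 8018 FPKM in ascending controls.

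Il22ra1, the epithelial subunit of the IL-22 receptor, ran against Reg3b. Over the 15 ascending libraries r was -0.765 and rho -0.671 (adjusted permutation p = 0.00937 and 0.0575), so that only r passed, and r was -0.602 without the 2 farthest libraries and -0.795 within cage and genotype. In ascending mutants Il22ra1 was at 52.31 FPKM in B1 and 50.52 in C1 and between 23.57 and 38.21 in the others, and in ascending controls it was at 68.59 FPKM in B1 and 46.68 in C1 and between 23.29 and 42.43 in the others. The libraries with the lowest Reg3b and Reg3g were therefore those with the highest Il22ra1 in each genotype. Tifa, a signalling adaptor, passed for rho alone (r = 0.610 and rho = 0.746, adjusted permutation p = 0.0860 and 0.0387), and the enteroendocrine marker sum for r alone (r = 0.727 and rho = 0.643, adjusted permutation p = 0.0181 and 0.0762). Within cage and genotype r was 0.715 for Tifa and 0.823 for that sum. Saa1, which is induced by microbes in gut epithelium, did not pass (r = -0.554 and rho = -0.200, adjusted permutation p = 0.132 and 0.755), with r = -0.705 within cage and genotype and -0.0760 without the 2 farthest libraries. The smooth muscle sum did not pass (r = -0.472 and rho = -0.157, adjusted permutation p = 0.212 and 0.762), with r = -0.662 within cage and genotype and 0.366 without the 2 farthest libraries, which include control B1. Retnlb (r = 0.0160 and rho = 0.225, adjusted permutation p = 0.982 and 0.739) and estimated depth (r = -0.0961 and rho = -0.0321, adjusted permutation p = 0.976 and 0.965) did not pass either.

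The genotype comparison gave wide intervals. Reg3b averaged 465 ± 384 FPKM in ascending mutants and 546 ± 420 FPKM in ascending controls (SD, n = 8 and 7), and the cage-adjusted difference was 0.40 ± 1.13 on the log2(FPKM + 1) scale (SE, limma adjusted p = 0.911), with a 95% interval of -2.0 to 2.79. Reg3g averaged 83.1 ± 72.0 FPKM in ascending mutants and 67.6 ± 63.6 FPKM in ascending controls, with a difference of 0.85 ± 0.78 (adjusted p = 0.692) and an interval of -0.81 to 2.52. Reg3a averaged 1.94 ± 0.695 FPKM in ascending mutants and 2.50 ± 1.88 FPKM in ascending controls, with a difference of -0.15 ± 0.29 (adjusted p = 0.857) and an interval of -0.76 to 0.46. Reg4 averaged 23.6 ± 28.7 FPKM in ascending mutants and 26.1 ± 50.6 FPKM in ascending controls, with a difference of 0.99 ± 0.84 (adjusted p = 0.664) and an interval of -0.78 to 2.77. For Reg3b and Reg4 the mean FPKM was lower in mutants while the difference of log2 values was above 0, so the direction depends on the scale. The groups overlapped for each of the 4 genes. In the descending colon Reg4 averaged 316 ± 164 FPKM in mutants and 228 ± 119 FPKM in controls, with a difference of 0.58 ± 0.46 (adjusted p = 0.999) and an interval of -0.40 to 1.56. That difference was 0.2 without descending control A2, and it ran from 0.15 without cage A to 1.07 without cage C (adjusted p of 0.658 to 1 over the alternatives). There, the 3 Reg3 genes did not pass the filter on low values in that fit.

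Against these values, 0% of genes tested passed in the ascending colon, 0% in the descending colon and 0% for the difference between the regional effects (limma, 12178, 12219 and 12353 genes), with 1396, 267 and 198 genes at an unadjusted p under 0.05. With array quality weights 746 genes passed in the ascending colon and without cage B 652 passed, and the Reg genes were not among them. The difference between the genotype effects of the 2 regions did not pass for any Reg gene, and was 0.41 ± 1.02 for Reg4 (limma adjusted p = 1.00). Genotype was also permuted exactly within cages, over 1000 arrangements. In the ascending colon this permutation gave p = 0.781 for Reg3b, 0.384 for Reg3g, 0.658 for Reg3a and 0.32 for Reg4. The permutation p in the descending colon was 0.52 for Reg3b, 0.128 for Reg3g and 0.288 for Reg4. Adjusted over the 7 tests, p was 0.672 to 0.781. With 13 of 15 descending libraries at 0, the test of Reg3b there could not have passed. Descending Reg3g, at most 0.51 FPKM, was also near the floor, so neither value is read as a result on genotype.

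The intervals allow changes of several fold in either direction for Reg3b, and the 3 cages did not give the same sign. The ascending mutant minus control difference of Reg3b was -1.22 in cage A, 0.62 in cage B and 1.79 in cage C on the log2 scale. Reg3g gave 0.06, 0.71 and 1.78, Reg3a -0.76, 0.31 and -0.01, and Reg4 -0.14, -0.15 and 3.27 in cages A, B and C. In cage A the estimated depth was 1.46 to 1.6 M reads in ascending mutants and 6.94 and 6.46 M in ascending controls. Genotype and depth can therefore not be told apart in that cage. For Reg4 in cage C, the controls were at 1.15 and 1.25 FPKM and the lowest of the 3 mutants at 3.38. Reg4 in the descending colon gave 1.44, 0.70 and -0.40, and 0.36 in cage A without control A2, which leaves 1 control there. The test for a genotype effect that depends on cage did not pass for Reg4 (moderated F test in limma, adjusted p = 0.597 ascending and 0.879 descending) or for Reg3b (adjusted p = 0.864), where 0% of genes passed in the ascending and 0.00818% in the descending colon. Differences between cages passed for 1.32% of genes in the ascending colon and 0.597% in the descending colon, and the smallest adjusted p of a Reg gene was 0.355, for Reg3a in the ascending colon. Leaving out ascending control B1 turned the pooled difference of Reg3b to -0.33 (limma adjusted p = 0.869), and that of Reg3g was then 0.37 (adjusted p = 0.789).

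**Figure D4:**
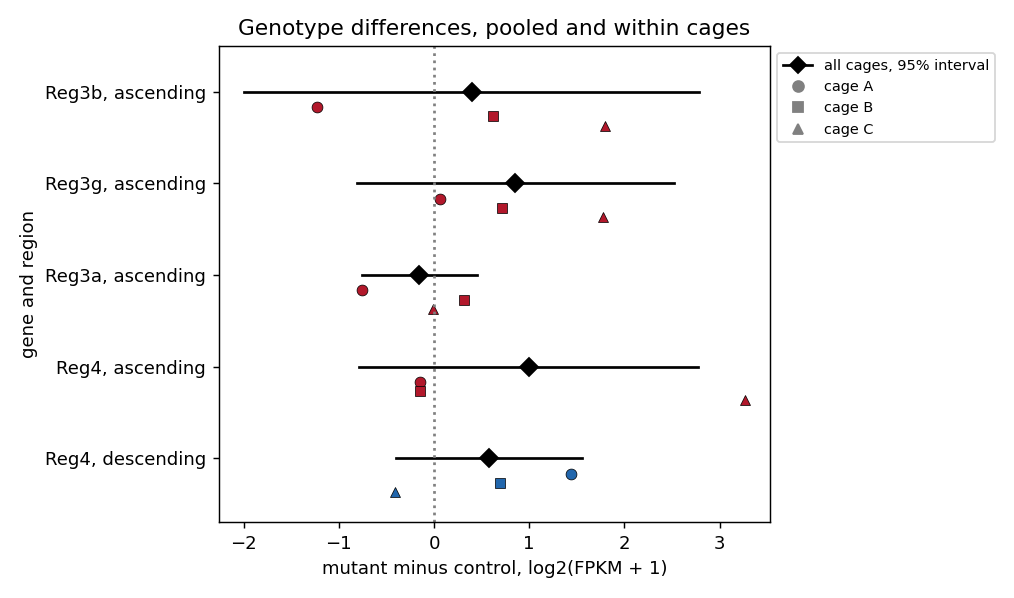
Mutant minus control difference in log2(FPKM + 1) on the horizontal axis for each gene and region, as the cage-adjusted value with its 95% interval (diamond and line) and within each cage (markers below it). Each interval spans 0, and Reg4 in cage C, at 3.27, lies farthest to the right.

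The routes that switch on Reg3 genes were described from a list of 24 cytokines, receptors and signalling genes of the IL-22 and MyD88 routes, of which 19 are in the table. Il22, Il23a, Il17a, Il17f and Osm are not analysed here. In mutants 3 of 16 tested members were higher and 2 lower in the ascending colon, and in controls 3 of 17 were higher and 1 lower, with a median difference of 0.04 in mutants and 0.09 in controls against -0.16 and -0.14 over all genes, on the log2 scale. Over all genes tested, 14.3% were higher and 29.7% lower in mutants, and 12.8% and 25.1% in controls, so that the higher members in mutants were near the share of all genes. Tlr2, a receptor for bacterial lipoproteins, was higher in the ascending colon by 2.05 ± 0.13 in mutants and 2.28 ± 0.16 in controls (SE, limma adjusted p = 1.38e-09 and 3.87e-07). Il18, an epithelial cytokine, was lower by the same measure, at -2.90 ± 0.25 in mutants and -2.76 ± 0.29 in controls (adjusted p = 7.69e-08 and 1.01e-05). Tlr5, the flagellin receptor, was higher by 1.12 ± 0.15 in mutants and 0.93 ± 0.24 in controls (adjusted p = 1.26e-05 and 0.00825). No member passed between genotypes in either region.

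The other epithelial defence genes differed between the regions in both directions. Of 22 listed, 21 are in the table, and 6 of 17 tested in mutants and 4 of 18 in controls were higher in the ascending colon, with 3 lower in each genotype. The share of all genes was 14.3% higher and 29.7% lower in mutants, and 12.8% and 25.1% in controls. Dmbt1 averaged 1704 ± 472 FPKM in ascending mutants and 696 ± 239 FPKM in descending mutants (SD, n = 8 each), a difference of 1.31 ± 0.27 (SE, limma adjusted p = 9.57e-04). Retnlb, a goblet cell protein active against bacteria, was higher in ascending controls than in descending controls by 2.94 ± 0.88 (adjusted p = 0.0182). Fut2, which fucosylates epithelial glycans, was higher in the ascending colon by 0.60 ± 0.11 in mutants and 0.94 ± 0.19 in controls (adjusted p = 3.98e-04 and 0.00165). Saa1, a serum amyloid protein, was lower there by the same measure, at -1.67 ± 0.24 in mutants and -1.76 ± 0.36 in controls (adjusted p = 3.45e-05 and 0.00192). No defence gene passed between genotypes in either region.

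The regional difference of Reg4 was set beside markers of the cells that make it. The sum of the 15 goblet and deep crypt secretory cell markers had medians of 7744 FPKM in ascending mutants and 6078 FPKM in descending mutants, and of 10069 FPKM in ascending controls and 5039 FPKM in descending controls. Muc2 alone had medians of 5070 FPKM in ascending and 630 FPKM in descending mutants. In controls its medians were 5345 FPKM in the ascending and 548 FPKM in the descending colon. The ascending sums thus rest largely on Muc2 and do not count cells. In mutants 4 of the 15 were higher and 7 lower in the ascending colon, and in controls 4 were higher and 4 lower, beside 14.3% of all genes higher and 29.7% lower in mutants and 12.8% and 25.1% in controls. Muc2, the main colon mucin, was higher there by 2.79 ± 0.26 in mutants and 2.74 ± 0.36 in controls (SE, limma adjusted p = 2.47e-07 and 6.52e-05). Spdef, a transcription factor of goblet cells, was also higher, by 1.89 ± 0.23 in mutants and 2.03 ± 0.43 in controls (adjusted p = 4.25e-06 and 0.00245). Mptx1, a pentraxin of secretory cells, was lower, at -7.48 ± 0.71 in mutants and -6.24 ± 0.62 in controls (adjusted p = 3.02e-07 and 5.70e-06), and averaged 8.46 ± 10.8 FPKM in ascending mutants and 1130 ± 1007 FPKM in descending mutants (SD, n = 8 each). Dll1, a Notch ligand, was lower at -1.10 ± 0.13 in mutants and -0.97 ± 0.15 in controls (adjusted p = 5.26e-06 and 2.07e-04). Kit, also on this list, averaged 12.5 ± 4.19 FPKM in ascending and 6.84 ± 1.31 FPKM in descending mutants (SD). In controls Kit averaged 16.8 ± 6.36 FPKM in the ascending and 8.51 ± 3.43 FPKM in the descending colon, against the direction of Reg4. Of 9 enteroendocrine markers, 4 were higher and 2 lower in the ascending colon in mutants, and 5 higher and 1 lower in controls. The shares over all genes were 14.3% higher and 29.7% lower in mutants and 12.8% and 25.1% in controls. Chga, a granule protein of endocrine cells, was higher there by 1.78 ± 0.13 in mutants and 1.78 ± 0.33 in controls (SE, limma adjusted p = 8.31e-09 and 9.55e-04), against the direction of Reg4. Chgb, a related granule protein, was higher by 1.13 ± 0.11 in mutants and 1.49 ± 0.29 in controls (adjusted p = 5.75e-07 and 0.00148), and Tph1, which makes serotonin, by 1.24 ± 0.12 in mutants and 1.68 ± 0.35 in controls (adjusted p = 4.83e-07 and 0.00231). Pyy, a hormone of distal gut endocrine cells, was lower at -2.02 ± 0.19 in mutants and -1.33 ± 0.30 in controls (adjusted p = 3.25e-07 and 0.00391).

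Of 11 EGF receptor ligands and Wnt targets listed with the crypt base, 2 of 10 tested in mutants were higher and 5 lower in the ascending colon, and 2 of 11 in controls were higher and 4 lower. All genes gave 14.3% higher and 29.7% lower in mutants and 12.8% and 25.1% in controls. Sox9, a crypt transcription factor, was lower there at -1.03 ± 0.15 in mutants and -0.87 ± 0.13 in controls (limma adjusted p = 3.48e-05 and 1.41e-04), and Cd44 was higher by 1.69 ± 0.17 in mutants and 1.61 ± 0.26 in controls (adjusted p = 4.84e-07 and 2.73e-04). Within the ascending colon, 32 relations of Reg4, also computed after the values were seen, with these genes, the secretory markers, marker sums and depth gave none past the threshold for both r and rho. The smallest adjusted permutation p of rho was 0.266, for Tgfa, an EGF receptor ligand (r = 0.624, rho = 0.667). Of the 11 pancreas markers, the organ best known for Reg proteins, only Cela1 is in the table, and it was lower in the ascending colon, at 6.71 to 20.21 FPKM in mutants and 4.18 to 16.91 FPKM in controls.

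The gene most like Reg4 over libraries was Gal3st2c, a sulfotransferase gene. Its Spearman's rho with Reg4 was 0.754 over the 15 ascending and 0.854 over the 15 descending libraries, the smaller of the 2 being the largest among 10469 genes. In ascending mutants Gal3st2c was at 35.93 FPKM in B1, 35.82 in C1 and 12.21 in C2 and at most 0.46 in the others, and in ascending controls it was at 14.42 FPKM in B2 and at most 0.78 in the others. It thus was high in mutant C1 and control B2, the libraries where Reg4 reached its descending range, and also in mutant B1, where Reg4 was at 15.79. Hspa4 (0.664), Aldh6a1 (0.636), Cat (0.629) and Ugt1a7c (0.625) followed by the same measure. For the Reg3 genes, likeness could be taken only over the 15 ascending libraries, among 10858 genes. By rho, Paics (0.914), Usp22 (0.904), Phb (0.900), Polr2i (0.893) and Coq6 (0.893) were most like Reg3b, Pigk (0.904), Tmem115 (0.900), Aimp2 (0.886), Ndufs3 (0.882) and Ppcs (0.882) were most like Reg3g, and Grsf1 (0.889), Sgms2 (0.888), Slc7a7 (0.882), Lgmn (0.879) and Glg1 (0.878) were most like Reg3a. These 3 sets share no gene, although Reg3b and Reg3g themselves had a rho of 0.821, and each rests on 15 values drawn from the same libraries.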

How the data were processed

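The deposited table holds FPKM computed by the authors for 14475 genes in 30 libraries. Per the labels' protocols, RNA depleted of ribosomal RNA was sequenced as single reads. The tools were STAR, DESeq2 and bcl2fastq 2.17, and the genome GRCm38 (mm10), per the submitters' processing notes. How reads were counted, the annotation and the gene lengths were not given in the sources used here, and positions are from GENCODE M21. The files give no counts. Depth was estimated from the steps of low values (genes of 300 to 2500 nt), 76.2 to 84.1% of which lay within 0.2 of a step, and it entered no test except as a correlate.

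Groups follow the labels for region, genotype and cage. The deposited FPKM were transformed to log2(FPKM + 1), genes averaging 0.5 FPKM or more were kept, and limma 3.58.1 in R 4.3.3 (eBayes with a trend) was fitted with cage as a covariate, with a two-sided Benjamini-Hochberg adjusted p under 0.05 as the threshold. Adjustment was over all genes tested. Known changes in simulated data served to test the fits. Correlations used 100000 permutations, two-sided, of all 15 ascending libraries without regard to cage, genotype or number. Their p-values therefore treat these libraries as exchangeable, which was not tested.

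The members and gene lists were chosen with earlier results of these data known. Named genes are the Reg genes, from each list up to 4 genes by smallest adjusted p, and the 5 genes most like each member. Il22ra1 was named after its values were seen, and some genes are named for their relation with a member. Alternatives were a pseudocount of 0.1, other filters, scalings and weights, leaving out libraries or cages, and a replicate block. Promoters are from RefSeq.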

Additional observations from a re-analysis of the deposited data

How the results depend on the processing

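The regional differences of the 4 Reg genes kept their direction and passed in 230 of 230 alternatives (limma adjusted p of 3.1e-10 to 0.0206). These alternatives refit the same libraries and are no independent support. The 3 Reg3 genes were at most 0.54 FPKM in the descending colon and passed the filter only through ascending libraries. Their direction could therefore hardly turn. Of 316 alternatives for the genotype differences and their difference between regions, 295 kept the direction and 0 passed (adjusted p of 0.213 to 1). The reversals were as follows, on the log2 scale. The ascending difference of Reg3a was 0.07 with a pseudocount of 0.1 and 0.15 without cage A, and its difference between regions was 0.07 and 0.15. For Reg3b the ascending difference was -0.12 with array quality weights, -0.3 without cage C and -0.33 without ascending control B1 and descending control A2, a pair chosen after seeing the data. Leaving out 1 library gave -0.33 to 0.90 for Reg3b, below 0 without control B1 or C1 or mutant B2. Its difference between regions was -0.16 with a pseudocount of 0.1, -0.1 with array quality weights, -0.4 without cage C and -0.46 without that pair. Leaving out 1 library gave -0.47 to 0.76 for that difference, below 0 also without mutant C3. For Reg4 without cage C the ascending difference was -0.14 and the difference between regions -1.21, and leaving out 1 library gave -0.04 to 1.00 for that difference, below 0 without mutant C1. The causes were not tested.

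Genes called between genotypes in the ascending colon numbered 746 with array quality weights, 652 without cage B, 3 in 1 fit of all 30 libraries, 1 without control B1 and descending control A2 and 0 to 170 without 1 library, the highest without mutant B1. In the descending colon 1 was called with array quality weights. Between regions, 2069 were called in controls without cage B and 2567 without cage C, against 4744, and 3528 in mutants without cage C, against 5368, with fewer libraries in each.

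Libraries of 1 number did not deviate together in every pair (r of -0.276 to 0.369 over 15 pairs of regions, 4 of them over 0.1, and -0.184 to 0.405 over 12 pairs of genotypes, 6 of them over 0.1), and 4 and 5 of these correlated best with their own number. Deviations were taken within region, genotype and cage, so 2 libraries of such a set mirror each other. Pairs of regions from these sets give the same r for both numbers, and their best match rests on its sign alone. The 3 mutants of cage C were among those over 0.1 between regions (r of 0.2 to 0.369), as were the cage B pairs of genotypes (0.157 to 0.405), so the numbers may pair some libraries. A replicate block left 0 genes called between genotypes, 4236 between regions in controls and 5219 in mutants, with 0.39 for Reg3b and 1.18 for Reg4 in the ascending colon. FPKM without counts limit the precision of low values such as those of Reg3a.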
